A study of Homo sapiens with 12 samples.

Results

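The 10 keratin genes KRT7, KRT8, KRT17, KRT18, KRT19, KRT20, KRT23, KRT80, KRT81 and KRT5 were examined in 2 hepatocellular carcinoma (HCC) cell lines, HA22T and PLC5. They were chosen by name, and their probes were found through the RefSeq transcripts that the array design assigns to its spots. They are 10 of the 20503 genes and 13 of the 50599 probes that could be examined. KRT8, KRT18 and KRT23 each had 2 probes and the other genes 1. Cultures of each line had been transfected for 48 h with 10 nM of either a non-targeting siRNA (siControl) or a pool of siRNAs against GALNT1 (siGALNT1), which gave 4 groups of 3 one-color arrays. GALNT1 encodes an enzyme that starts mucin-type O-glycosylation in the Golgi. Every group had received Lipofectamine RNAiMAX and an siRNA, and each line stands for 1 tumor only. The labels do not say whether the replicates came from separate cultures, so that the p-values below measure the spread between these arrays, which may be technical.

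Keratins are the intermediate filament proteins of epithelial cells. A filament is built from pairs of a type I and a type II keratin, and a partner without its counterpart is degraded. KRT8 (type II) and KRT18 (type I) are the pair of the normal hepatocyte, whereas bile duct cells add KRT7 (type II) and KRT19 (type I). KRT20 and KRT23 are type I keratins, the former best known from intestinal and urothelial epithelium. KRT17 (type I) and KRT5 (type II) belong to basal and wounded stratified epithelium, KRT80 is a type II keratin of differentiating epithelium, and KRT81 is a type II keratin of hair. The type II genes lie together on chromosome 12 and the type I genes on chromosome 17, except KRT18, which neighbours KRT8 on chromosome 12. KRT80 is the coding neighbour of KRT7, and KRT20 that of KRT23.

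Of the 10 genes, KRT5, KRT8 and KRT20 had an entry in the promoter table of RefSeq (GRCh38.p14). The 150 bases before the start of KRT8, bright in both lines, and of KRT20, above background on some PLC5 arrays only, are shown 5′ to 3′ on the minus strand, with the letters CCAAT in capitals.
KRT8, chr12:52926470-52926619: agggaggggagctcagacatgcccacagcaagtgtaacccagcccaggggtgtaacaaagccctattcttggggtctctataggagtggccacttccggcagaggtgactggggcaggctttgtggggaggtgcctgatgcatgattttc
KRT20, chr17:40885243-40885392: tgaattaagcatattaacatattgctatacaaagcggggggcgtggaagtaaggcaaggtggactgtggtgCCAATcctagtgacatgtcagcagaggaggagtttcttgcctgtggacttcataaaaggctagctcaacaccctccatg
The 250 bases before each start were searched on both strands for TATAAA (the TATA box), GGGCGG (the GC box), TGANTCA (AP-1), CCAAT and GCCNNNGGC (AP-2), and no match overlapped another. Among 35116 promoters of this length these letters occurred in 10.7%, 42.6%, 6.57%, 32.0% and 19.8%. KRT20 held CCAAT once, beginning 79 bases before the start on the strand shown. None of the other motifs was found in KRT20, and none of the 5 in KRT8 or KRT5.

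The values below are log2 signals from which the 75th percentile of the same array was subtracted, and the level of one probe cannot be set against that of another. Each array had 58717 spots, of which 36679 to 48873 were well above background and 489 to 3633 were flagged as non-uniform and left out. No spot was saturated. Both GALNT1 probes were lower on every siGALNT1 array than on every siControl array of the same line, with differences of -5.10 and -4.75 in HA22T and of -3.72 and -3.03 in PLC5 (limma adjusted p = 0.0708 and 0.0305 in HA22T and 1.00 for both in PLC5). On the HA22T siGALNT1 arrays these probes were well above background on 2 and 1 of 3 arrays. With the replicate number as a block, since same-numbered HA22T arrays deviated together, the limma adjusted p was 0.204 and 0.107 in HA22T, and the second probe was no longer called. GAPDH, often used as a reference gene, lay between 5.77 and 6.61 on all 12 arrays. All 6 HA22T arrays and replicate 1 of both PLC5 groups were on slide 1, whereas slide 2 held the other 4 arrays of PLC5, so that part of each comparison between the lines is also one between slides. Among 10 hepatocyte markers, the PLC5 siControl arrays were all well above background for every marker, whereas on the HA22T siControl arrays TF and TTR were so on 1 array and APOB, FGB and AFP on 2. The arrays measure RNA of whole cultures, in which fewer cells of a kind and less RNA per cell cannot be told apart.

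**Figure D1:**
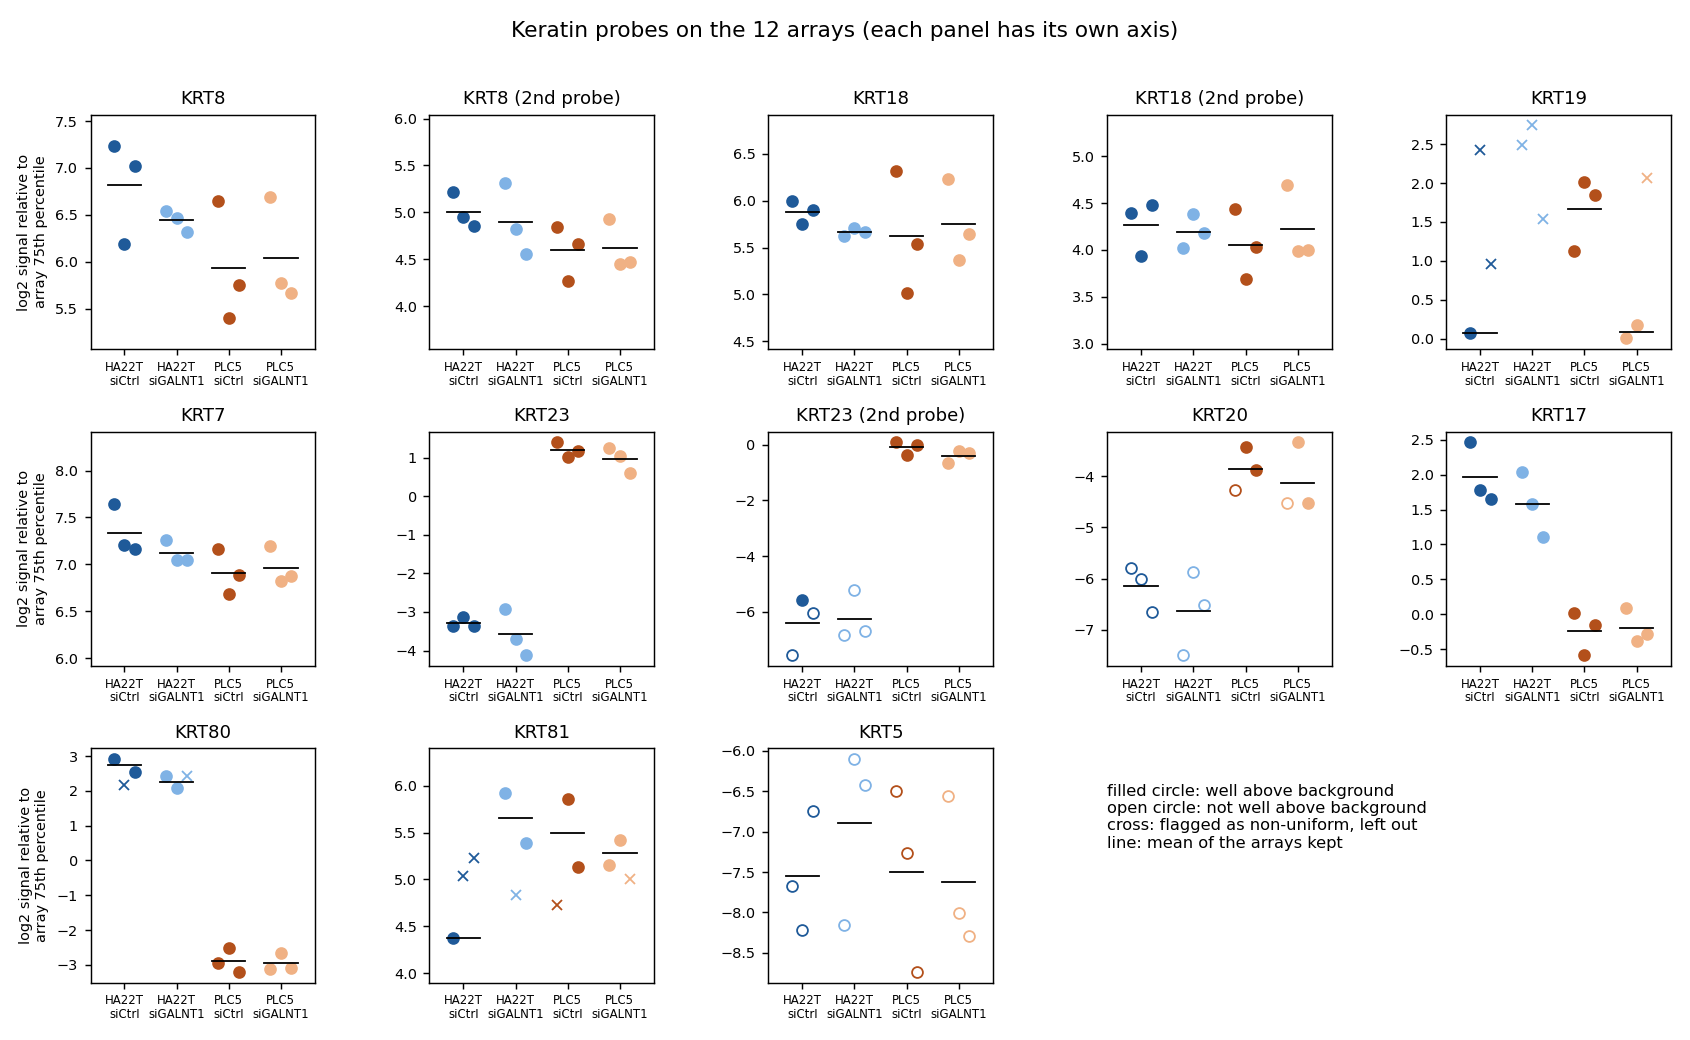
Log2 signal relative to the 75th percentile of the array (y axis, a scale of its own in each panel) for the 13 keratin probes in the 4 groups of 3 arrays. KRT23 and KRT20 lie higher on all PLC5 arrays than on all HA22T arrays, KRT17 and KRT80 lie lower, KRT8, KRT18 and KRT7 overlap or nearly do, and KRT5 is not well above background on any array.

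KRT80, KRT17 and KRT23 were called different between the lines, and the hepatocyte pair KRT8 and KRT18 was not. KRT80 and KRT17 were higher in HA22T, by 49.4-fold and 4.64-fold with siControl, and KRT23 was higher in PLC5, by 22.5-fold. With siControl, 8 of the 10 genes were counted, which required that 3 or more of the 6 arrays compared were well above background. Of these, 1 was called higher and 2 were called lower in PLC5 at an adjusted p below 0.05 (limma with Benjamini-Hochberg adjustment over 38006 counted probes). Over all counted probes, 11% were called higher and 11% lower in PLC5, and with so few keratins these counts describe single genes and not the family. The median difference was -0.34 over the 8 genes and -0.04 over all counted probes. With siGALNT1, 7 genes were counted, and KRT23 was again called higher and KRT80 and KRT17 lower. There 13.1% of all counted probes were called higher and 9.79% lower, and the median difference was -0.37 over the 7 genes against -0.10 over all counted probes.

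KRT80 had the largest difference in both conditions when each gene was read by its brightest probe, and only the second probe of KRT23, described below, gave a larger one. In HA22T it stood at 2.92 and 2.56 with siControl and at 2.42 and 2.07 with siGALNT1, with 1 further array of each group flagged. In PLC5 it stood at -2.94, -2.52 and -3.21 with siControl and at -3.11, -2.66 and -3.09 with siGALNT1. All HA22T arrays lay far above all PLC5 arrays, and the groups of a line lay close together. The difference, PLC5 minus HA22T, was -5.63 (SE 0.32, limma adjusted p = 2.45e-06) with siControl and -5.20 (SE 0.32, limma adjusted p = 4.55e-06) with siGALNT1. With the flagged spots kept, which read 2.18 and 2.44, it was -5.44 and -5.27. Within slide 1 it was -5.67 and -5.36, against 1 PLC5 array each.

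KRT17 was present in both lines and higher in HA22T. Its HA22T values were 2.47, 1.79 and 1.66 with siControl and 2.05, 1.58 and 1.11 with siGALNT1. Its PLC5 values were 0.02, -0.59 and -0.16 with siControl and 0.09, -0.38 and -0.28 with siGALNT1. The lines did not overlap, while the groups within each line did. The difference was -2.21 (SE 0.32, limma adjusted p = 0.000449) with siControl and -1.77 (SE 0.32, limma adjusted p = 0.00215) with siGALNT1. Within slide 1 it was -1.95 and -1.49.

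KRT23 was the keratin called higher in PLC5. Its brighter probe read -3.38, -3.12 and -3.37 in HA22T with siControl and -2.92, -3.69 and -4.12 with siGALNT1. In PLC5 it read 1.40, 1.02 and 1.19 with siControl and 1.26, 1.04 and 0.61 with siGALNT1. Every one of these 12 spots was well above background, and the lines lay apart by more than 3 log2 units. The difference was 4.49 (SE 0.32, limma adjusted p = 2.21e-06) with siControl and 4.55 (SE 0.32, limma adjusted p = 2.27e-06) with siGALNT1, and within slide 1 it was 4.69 and 4.83. The second KRT23 probe was well above background on all 6 PLC5 arrays but on only 1 of 6 HA22T arrays. With siControl it gave 6.29 (SE 0.52, limma adjusted p = 6.87e-06) against HA22T arrays that read -7.55, -5.57 and -6.04, of which only the second was above background, so that the size of this difference is uncertain. With siGALNT1 KRT23 was at least 22.2-fold higher in PLC5 by this probe, its HA22T mean of -6.24 being replaced by the lowest signal well above background where that was higher.

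KRT20, the neighbour of KRT23, was dim. It was not well above background on any of the 6 HA22T arrays, where it read -5.79, -6.01 and -6.66 with siControl and -7.50, -5.88 and -6.52 with siGALNT1. In PLC5 it read -4.26, -3.42 and -3.87 with siControl and -4.52, -3.33 and -4.52 with siGALNT1. It was well above background on 2 of 3 PLC5 arrays of each group, replicates 2 and 3, which are those on slide 2. On slide 1 it was not well above background on any array of either line. The measured difference within slide 1 was 1.89 with siControl and 2.11 with siGALNT1. The part of the slide in the readings of KRT20 was not tested. The PLC5 arrays lay above all HA22T arrays. With its HA22T values raised in the way just described, it was 3.16-fold higher in PLC5 with siControl and 1.68-fold higher with siGALNT1. These folds are not firm bounds, since the PLC5 means include replicate 1, which was not well above background. Only 2 of the 6 arrays compared were well above background, fewer than the 3 required, so that KRT20 has no adjusted p.

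**Figure D2:**
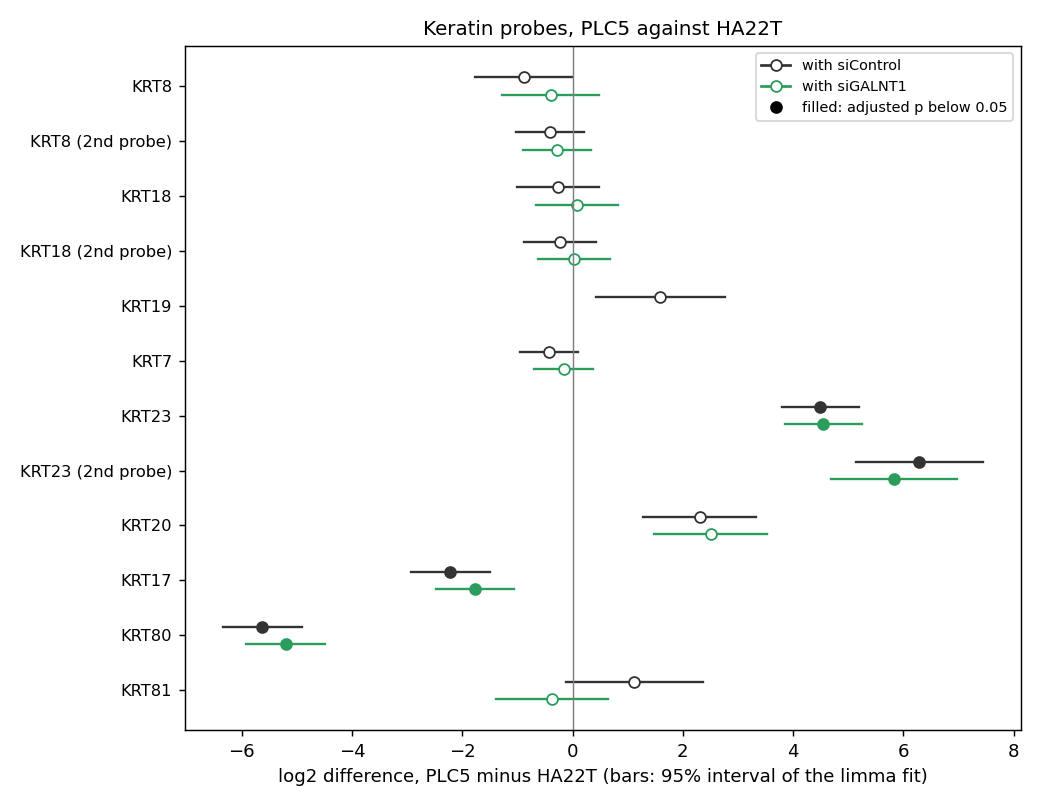
Log2 difference, PLC5 minus HA22T (x axis), of 12 keratin probes with siControl and with siGALNT1, with 95% intervals of the limma fit; filled points passed an adjusted p of 0.05. KRT23 lies at 4.49 and 4.55, KRT17 at -2.21 and -1.77 and KRT80 at -5.63 and -5.20, while the intervals of KRT8 with siGALNT1 and of KRT18 and KRT7 include 0; for KRT20 and the second KRT23 probe the HA22T side is mostly below background.

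KRT8 and KRT18, the pair of hepatocytes, were bright in both lines, and no difference between the lines was called. The brighter KRT8 probe read 7.23, 6.19 and 7.02 in HA22T with siControl and 6.64, 5.40 and 5.75 in PLC5. These groups overlapped, and the difference was -0.88 (95% interval -1.76 to -0.00071, limma adjusted p = 0.151). With siGALNT1 it was -0.40 (95% interval -1.28 to 0.49, limma adjusted p = 0.520). The second KRT8 probe gave -0.41 with siControl, where all PLC5 arrays lay just below all HA22T arrays (limma adjusted p = 0.350). With siGALNT1 it gave -0.28, and the groups overlapped. The brighter KRT18 probe read 6.00, 5.75 and 5.90 in HA22T with siControl and 6.31, 5.02 and 5.54 in PLC5, whose arrays lay on both sides of those of HA22T. The difference of KRT18 was -0.26 (95% interval -0.999 to 0.48, limma adjusted p = 0.645) with siControl and 0.09 (95% interval -0.65 to 0.82, limma adjusted p = 0.884) with siGALNT1. The second KRT18 probe gave -0.22 and 0.03, with overlapping groups in both conditions.

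The PLC5 values of this pair differed between the slides, as did those of other probes named below. PLC5 replicate 1 was on slide 1 and the other PLC5 replicates on slide 2, so that slide and replicate cannot be told apart. On slide 1, PLC5 replicate 1 read 6.64 and 6.69 for KRT8 and 6.31 and 6.24 for KRT18 with siControl and siGALNT1, higher than each of the 4 PLC5 arrays on slide 2, which read 5.40 to 5.78 and 5.02 to 5.65. KRT7, KRT17 and KRT23 were likewise higher on both slide 1 arrays than on all slide 2 arrays of PLC5, as was GAPDH at 6.39 and 6.54 against 5.77 to 6.18. Leaving aside KRT5, which was not well above background on any array, this was seen for 5 of the 8 keratins with a value on both slide 1 arrays. The share of all probes that did so was not computed, so that this count describes single genes only. Within slide 1 the difference between the lines was -0.17 and 0.25 for KRT8 and 0.43 and 0.57 for KRT18. The part of the slide in these differences was not tested apart from the fit with slide as a block. In PLC5 that fit cannot separate the slide from the replicate.

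The bile duct keratins differed in how well they could be read. KRT7 was among the steady probes, at 7.65, 7.21 and 7.16 in HA22T with siControl, 7.26, 7.05 and 7.05 with siGALNT1, 7.16, 6.69 and 6.89 in PLC5 with siControl, and 7.19, 6.83 and 6.87 with siGALNT1. With siControl the highest PLC5 array and the lowest HA22T array both stood at 7.16, the groups otherwise lying apart, and the difference was -0.43 (95% interval -0.96 to 0.11, limma adjusted p = 0.258). With siGALNT1 the groups overlapped, and the difference was -0.15 (95% interval -0.69 to 0.38, limma adjusted p = 0.691).

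KRT19 could be read in PLC5 but hardly in HA22T, because 6 of its 12 spots were flagged as non-uniform. In HA22T the only spot kept, of siControl replicate 1, read 0.07. In PLC5 it read 1.13, 2.01 and 1.85 with siControl and 0.00 and 0.18 with siGALNT1. The flagged spots read 2.42 and 0.96 in HA22T with siControl, 2.49, 2.74 and 1.54 in HA22T with siGALNT1, and 2.07 in PLC5 with siGALNT1. The difference between the lines with siControl was 1.59 (SE 0.48, limma adjusted p = 0.0651) on 1 against 3 arrays, and 0.51 with overlapping groups when the flagged spots were kept. With siGALNT1 no HA22T spot was left.

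KRT81, the hair keratin, had 5 of its 12 spots flagged. The spots kept read 4.38 in HA22T with siControl, 5.92 and 5.39 in HA22T with siGALNT1, 5.86 and 5.13 in PLC5 with siControl, and 5.15 and 5.42 in PLC5 with siGALNT1. With the flagged spots all 12 lay between 4.38 and 5.92 and the lines overlapped. The difference between the lines was 1.12 (SE 0.51, limma adjusted p = 0.191) with siControl, on 1 against 2 arrays, and -0.37 (SE 0.42, limma adjusted p = 0.581) with siGALNT1. Where a group holds 1 array, as for KRT81 and KRT19 in HA22T with siControl, the fit takes that array to vary like the other groups. KRT81 is nearly identical in sequence to other hair keratins, and whether its probe also reads their transcripts was not tested. KRT5, the basal type II keratin, was not well above background on any of the 12 arrays, and no difference is given for it.

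Next, the question was whether lowering GALNT1 changed the keratins. No keratin gene was called in either line. In HA22T, 7 of the 10 genes were counted, 0 were called, and the differences, siGALNT1 minus siControl, ran from -0.49 to 1.28 with a median of -0.29, against -0.06 over all counted probes. At the adjusted threshold 0.00275% of the 36321 counted probes were called in HA22T, which is 1 probe, of GALNT1 itself, and with the replicate block 0 were called by limma and 2146 had an unadjusted p below 0.05. In PLC5, 9 genes were counted, 0 were called, and the differences ran from -1.57 to 0.13 with a median of -0.07, against 0.01 over all counted probes, of which 0% were called by limma. At an unadjusted p below 0.05, 1086 probes passed in HA22T and 508 in PLC5.

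Under the criterion of the study, a change of 1.5-fold or more with an unadjusted p below 0.05, 1 keratin gene passed in each line, KRT81 in HA22T and KRT19 in PLC5. This criterion passed 2.87% of all counted probes in HA22T and 1.29% in PLC5. KRT81 was higher with siGALNT1 in HA22T by 1.28 (SE 0.51, limma adjusted p = 1.00), on 1 siControl array against 2 siGALNT1 arrays, so that the spread of its siControl group was not measured. With its flagged spots kept, the groups overlapped at a difference of 0.50. KRT19 was lower with siGALNT1 in PLC5 by -1.57 (SE 0.38, limma adjusted p = 1.00), on 3 against 2 arrays, and both siGALNT1 spots lay below all siControl spots. The flagged spot of siGALNT1 replicate 3 read 2.07, above all siControl spots, and with it the difference was -0.91 and the groups overlapped.

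Among the other keratins, KRT80 and KRT17 had the lowest differences in HA22T, at -0.49 (95% interval -1.28 to 0.30) and -0.39 (95% interval -1.10 to 0.32). The KRT80 value rests on 2 against 2 arrays, and with its flagged spots kept it was -0.24 and the groups overlapped. KRT17 was lower with siGALNT1 in each of the 3 same-numbered pairs of HA22T arrays, by -0.42, -0.21 and -0.54, and with the replicate block its interval was -0.87 to 0.090 (limma adjusted p = 0.824). In PLC5 these genes stood at -0.07 (95% interval -0.71 to 0.58) and 0.05 (95% interval -0.66 to 0.76). For KRT8 the difference was -0.37 (95% interval -1.26 to 0.51) in HA22T and 0.11 (95% interval -0.77 to 0.99) in PLC5. For KRT18 it was -0.22 (95% interval -0.96 to 0.52) in HA22T, where all siGALNT1 arrays, at 5.62, 5.71 and 5.67, lay just below all siControl arrays, and an exact two-sided permutation test gave p = 0.1, the smallest that 3 against 3 arrays allow. In PLC5 KRT18 was at 0.13 (95% interval -0.61 to 0.87), and its groups overlapped. The second KRT18 probe gave -0.07 in HA22T, where its groups overlapped and its same-numbered pairs differed by -0.38, 0.46 and -0.30. KRT7 stood at -0.22 (95% interval -0.75 to 0.32) and 0.05 (95% interval -0.48 to 0.59). In the same-numbered HA22T pairs KRT7 differed by -0.38, -0.16 and -0.11 and the brighter KRT18 probe by -0.38, -0.04 and -0.23. With the replicate block their intervals were -0.68 to 0.24 and -0.71 to 0.27. The brighter KRT8 probe differed by -0.70, 0.27 and -0.70 in these pairs, with a block interval of -1.01 to 0.26. The brighter KRT23 probe differed by 0.46, -0.57 and -0.75, with a block interval of -0.99 to 0.40. KRT80 kept both spots only in the pair of replicate 1, which differed by -0.50. KRT23 stood at -0.29 (95% interval -0.99 to 0.41) and -0.23 (95% interval -0.93 to 0.47). KRT20, read in PLC5 only, stood at -0.27 (95% interval -1.30 to 0.75). These intervals leave room for changes of up to about 1 log2 unit in most genes.

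**Figure D3:**
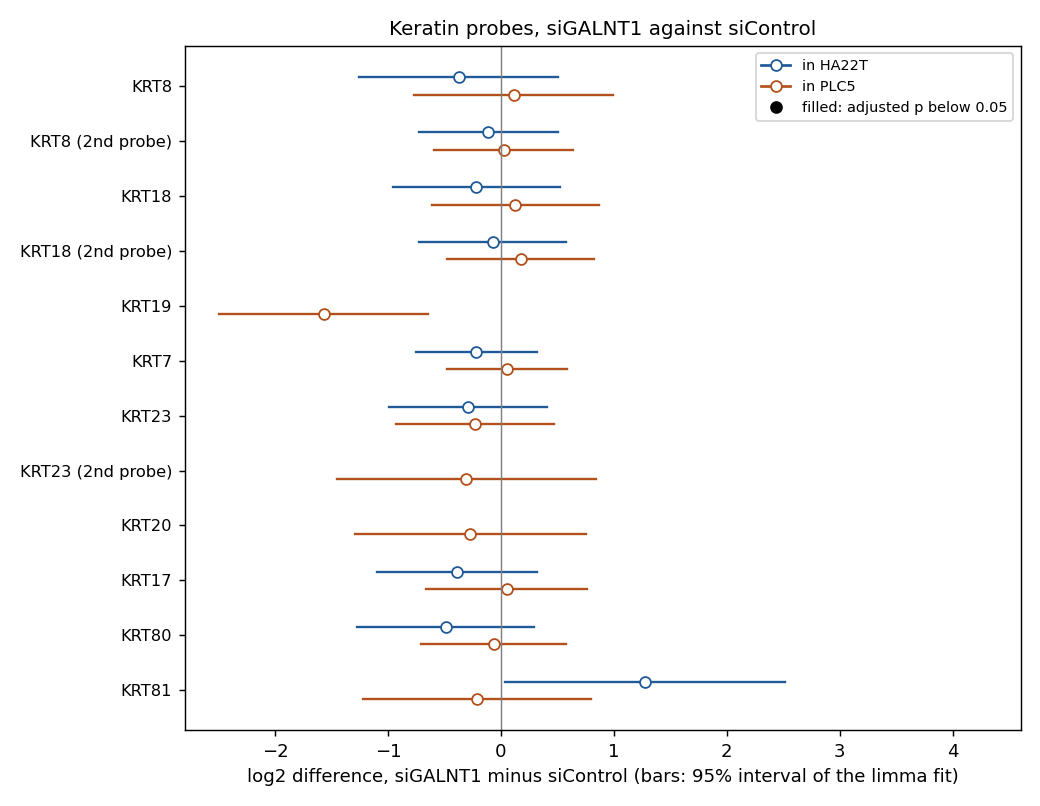
Log2 difference, siGALNT1 minus siControl (x axis), of the counted keratin probes in HA22T and PLC5, with 95% intervals of the limma fit. No probe passed an adjusted p of 0.05; the intervals of KRT81 in HA22T and KRT19 in PLC5 leave out 0 but rest on 3 and 5 spots, and all others drawn include 0.

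The effect of siGALNT1 was also compared between the lines. The difference, the effect in PLC5 minus that in HA22T, ran from -1.49 for KRT81 to 0.49 for KRT8 over 8 counted genes, and 0 were called by limma. Of all 39098 counted probes 0% were called, and 952 had an unadjusted p below 0.05. The difference for KRT81 (SE 0.66, limma adjusted p = 0.988) had the lowest p of the keratins and rests on 7 spots, of which 1 is HA22T siControl.

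The other keratins were examined to see whether the pattern of KRT17 and KRT80 extended to them. Of 22 further type I keratins with a probe, 17 were counted with siControl, and only KRT14, the basal partner of KRT5, was called. Among all counted probes, 11% were called higher and 11% lower in PLC5. KRT14 read 2.16 to 3.39 in HA22T and -1.26 to -0.90 in PLC5, a difference of -3.79 (SE 0.38, limma adjusted p = 3.15e-05), or 13.8-fold lower in PLC5, and with siGALNT1 it was -3.44. The other probes of KRT14 gave -1.66 and -1.98 with siControl. Of 20 further type II keratins, 12 were counted and 0 were called by their brightest probe, although a second probe of KRT72 was at least 2.95-fold higher in PLC5 and a second probe of KRT83, a hair keratin, was called lower at -0.93 (SE 0.24, limma adjusted p = 0.0170). With siGALNT1 that KRT83 probe was at -0.39 (limma adjusted p = 0.285). Among 8 keratin pseudogenes and keratin-like genes, KRT16P2 and KRT42P were called lower in PLC5, by -3.08 and -1.46, and KRT222 was called higher, by 2.13, with 2 of 3 HA22T arrays above background. With siGALNT1 KRT16P2 and KRT42P were again called lower, by -2.41 and -1.61, and KRT222 stood at 0.15. There KRT19P2 was called higher, by 1.95, on 2 of 3 arrays of each line, its other spots being flagged as non-uniform. The other KRT42P probe was not called, at -0.28 with siControl (limma adjusted p = 0.756) and -1.11 with siGALNT1 (limma adjusted p = 0.143). A second probe of KRT17P5 was called lower with siGALNT1, at -2.12 (limma adjusted p = 0.0355), with 1 of 3 PLC5 arrays above background. KRT14, KRT16 and KRT17 and their pseudogenes have stretches of nearly identical sequence, and whether their probes read one another's transcripts was not tested. KRT16 itself was at -0.85 (SE 0.38, limma adjusted p = 0.146). None of these 3 groups of further keratins held a gene called in either knockdown comparison. The largest knockdown differences among their counted probes were 1.99 (SE 0.62) for KRT222 in HA22T and -1.84 (SE 0.41) for KRT32 in PLC5. The latter rests on 3 against 2 arrays.

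**Figure D4:**
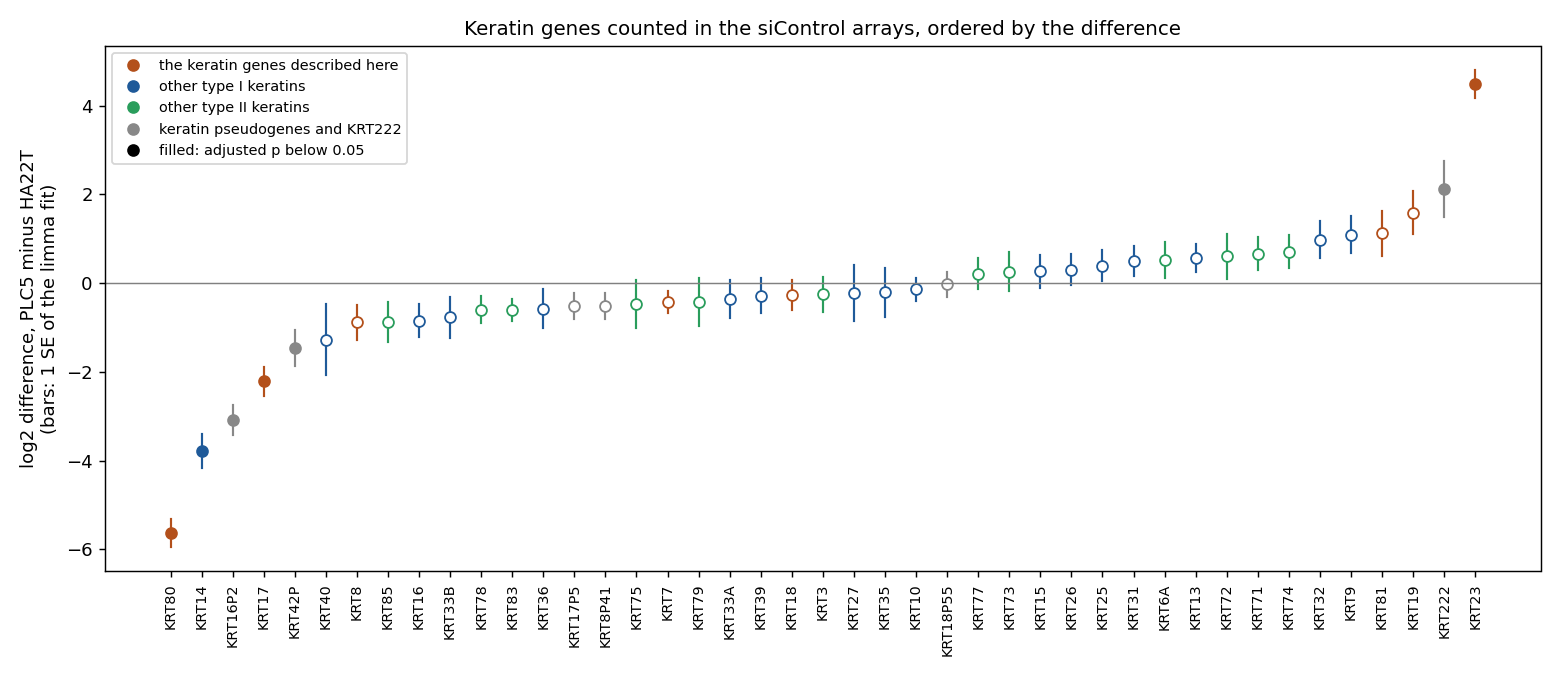
Log2 difference, PLC5 minus HA22T with siControl (y axis, bars 1 SE of the limma fit), of every keratin gene counted, in order of the difference; filled points passed an adjusted p of 0.05. KRT80 at -5.63, KRT14 at -3.79, KRT16P2 at -3.08, KRT17 at -2.21 and KRT42P at -1.46 lie below the rest, and KRT222 at 2.13 and KRT23 at 4.49 lie above.

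Keratins share the cytoplasm with vimentin (VIM), the intermediate filament of mesenchymal cells, and with other filament proteins. Of 13 other intermediate filament genes counted with siControl, 5 were called higher and 5 lower in PLC5, with a median difference of -0.29. Of all counted probes, 11% were called higher and 11% lower. VIM read 5.68 to 6.37 in HA22T and -0.28 to 0.88 in PLC5, a difference of -5.54 (SE 0.43, limma adjusted p = 4.54e-06), or 46.6-fold. It was 44.6-fold lower in PLC5 with siGALNT1. BFSP1, a filament gene of the eye lens, was lower in PLC5 by -3.76, with 1 of 3 PLC5 arrays above background, and at least 5.38-fold lower with siGALNT1. LMNB2, a nuclear lamin, was lower by -2.60. NEFL, the light neurofilament, was higher in PLC5 by 5.08, with 1 of 3 HA22T arrays above background. SYNM (synemin), which joins vimentin and desmin filaments, was not above background in HA22T and at least 16.7-fold higher in PLC5, and BFSP2 was at least 1.89-fold higher. None of them was called in a knockdown comparison.

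Filaments are anchored at desmosomes by linker proteins. Of 18 linker and desmosome genes counted with siControl, 6 were called higher and 4 lower in PLC5, with a median difference of -0.06. The shares of all counted probes were 11% and 11% with siControl, and 13.1% and 9.79% with siGALNT1. DSP (desmoplakin), which ties keratin filaments to the desmosome, was not above background on any HA22T array and read -0.29 to -0.08 in PLC5, at least 40.4-fold higher with siControl and at least 29.0-fold higher with siGALNT1. JUP (plakoglobin), its partner in the desmosomal plaque, was higher in PLC5 by 3.88 (SE 0.32, limma adjusted p = 6.97e-06) and PPL (periplakin) by 2.36, which with siGALNT1 was 0.92 and not called (limma adjusted p = 0.147). In the other direction, PKP3 (plakophilin 3) was lower in PLC5 by -3.97, the desmosomal cadherin DSC3 by -3.02 and the linker DST (dystonin) by -1.65. With siGALNT1, 5 were called higher, DSC2 at 2.72 among them with 1 of 3 HA22T arrays above background, and 3 lower.

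Among 22 regulators of epithelial genes counted with siControl, 9 were called higher and 3 lower in PLC5, with a median difference of 0.68. All counted probes had 11% called higher and 11% lower with siControl, and 13.1% and 9.79% with siGALNT1. The liver factor FOXA2 was higher in PLC5 by 6.85, with 1 of 3 HA22T arrays above background, the epithelial factor ELF3 by 6.30 and the hepatocyte factor HNF4A by 3.24. TWIST1 and ZEB1, both repressors of epithelial genes, were lower in PLC5 by -4.32 and -2.01, and KLF4, a factor of differentiating epithelium, by -2.27. With siGALNT1 again 9 were called higher and 3 lower, with FOXA2 at 6.90, ELF3 at 6.26 and SOX9 at 3.31, where FOXA2 and SOX9 were above background on 1 of 3 HA22T arrays, and TWIST1 at -4.32, KLF4 at -1.53 and ZEB1 at -1.52. These genes and the keratins were measured on the same 12 arrays of 2 lines, so that a link between any pair of them cannot be told apart from the other differences between the lines.

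**Figure D5:**
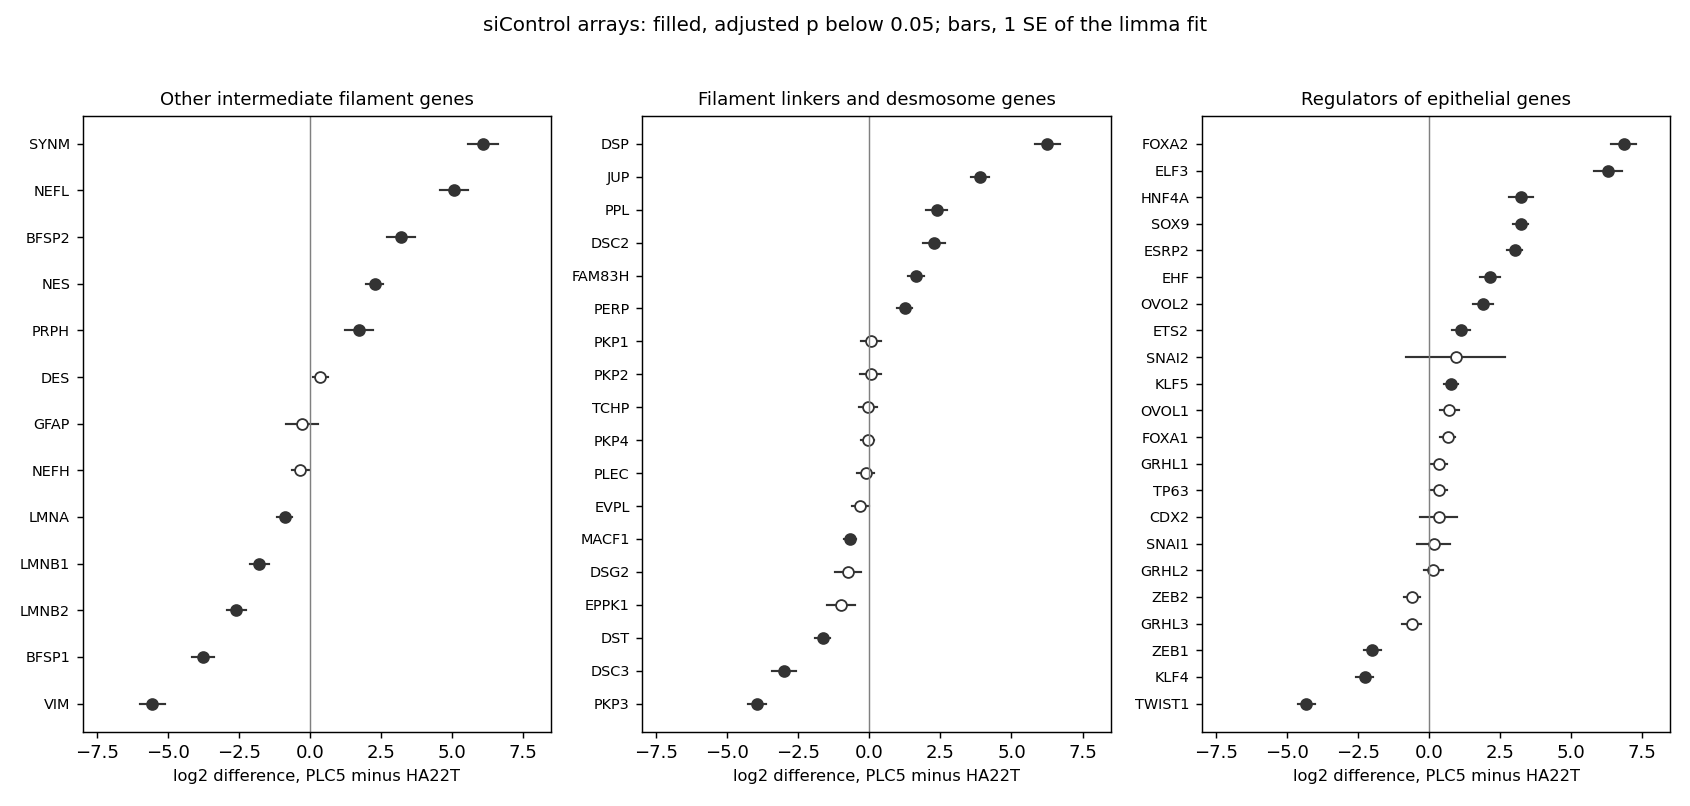
Log2 difference, PLC5 minus HA22T with siControl (x axis, bars 1 SE of the limma fit), of the counted genes of 3 lists; filled points passed an adjusted p of 0.05. VIM, PKP3 and TWIST1 lie lowest, at -5.54, -3.97 and -4.32, and SYNM, DSP and FOXA2 highest; the points of SYNM, DSP and BFSP2 are measured values against a HA22T side below background, where the text gives bounds.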

How the data were processed

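RNA of HA22T and PLC5 cells was hybridized to 12 one-color Agilent arrays. The authors analyzed the images with Agilent Feature Extraction 10.5.1.1, a version given in the submitters' processing notes, and deposited intensity values per spot, namely the background-subtracted processed signal and the median brightness of the spot and its surroundings, with flags. A second deposited table holds log2 values by probe, and its columns have their 75th percentile near 0. From the intensity, log2 of the processed signal minus the 75th percentile of the array was computed. Controls and spots flagged as non-uniform were dropped, and repeat spots of 1 probe were averaged. Of 50599 probes 28174 were named through RefSeq transcripts without versions, and no coordinates were taken from the array design, which was annotated on an older build. The brightest probe with a value in every group stood for a gene.

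The 4 groups were fitted together in R 4.3.3 with limma 3.58.1 (lmFit, eBayes). A probe was counted when 3 or more of the 6 arrays compared were well above background, and p-values were adjusted by Benjamini-Hochberg within counted probes, with a threshold of 0.05. Where a group was not above background on any array, its mean was raised to the lowest signal well above background on each array. The fold was then given as a bound, except for KRT20. Exact permutation tests were two-sided. The fit was run on simulated data, where small changes were mostly missed. The number of arrays limits the precision.

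The keratins, the other gene lists and the tests were chosen with earlier results of these data known, so none is independent of them. One of the listed marker genes is not reported here, and its list was counted without it. Named by rule were the 10 keratins, GALNT1, GAPDH and, from each list, every gene called in a knockdown comparison and the 3 largest rises and falls called between lines. KRT16, KRT32, KRT72 and single markers were named after their values were seen. The labels give the groups the same replicate numbers. Deviations from the group means correlated between the same-numbered HA22T arrays (r = 0.55, 0.40 and 0.43 over 22277 probes), all above 0.1, so the numbers were taken to pair these arrays from the values alone. In PLC5 (0.71, -0.02 and 0.16) and between lines they did not. Alternatives were normexp with an offset of 50 on the median spot signal, quantile and median scaling, the deposited table, other filters, flagged spots kept, the mean over probes, other priors, slide and replicate blocks, fits of 6 arrays, the methods' t-test (Student) and leaving out each array.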

Additional observations from a re-analysis of the deposited data

How the results depend on the processing

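The calls of KRT17, KRT23 and KRT80 between the lines, 6 results in all, were repeated under 154 alternatives with a test. They kept their direction in all of them and their call in 152. The exceptions were KRT80 with siControl and with siGALNT1 when a probe had to be well above background on all 6 arrays, since its flagged spots then remove it, which left 1 gene lower in PLC5 in each comparison instead of 2. Averaging the probes of a gene also left 1 in each, because KRT80 does not have a value on all 12 arrays. With siControl, 2 genes instead of 1 were called higher in PLC5 under normexp, without the filter on dim probes, with the prior over counted probes and with an intensity trend. Leaving out single replicates gave 1 to 2, with 2 when PLC5 siControl replicate 1 was left out. The added gene was KRT20 without the filter and KRT19 otherwise, which rests on 1 HA22T array. With siGALNT1, 2 were called higher without the filter, again with KRT20. No keratin was called in either knockdown comparison or between the knockdown effects under any alternative run. Hardly any probe passes there: the main fit called 1 of 36321 counted probes in HA22T and 0 of 38065 in PLC5. In PLC5 that fit did not call GALNT1 itself. The absence of a keratin call therefore does not show that the keratins were unchanged. By the methods' t-test, the criterion of the study passed 0 keratins and 753 probes in HA22T, and KRT19 and 325 probes in PLC5, and after Benjamini-Hochberg 0 keratins in both.

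With the replicate block, 0 keratins were called in each knockdown comparison, and 1 higher and 2 lower between the lines in both conditions, so that pairing changed no call of a keratin. It ended the call of GALNT1 in HA22T (limma adjusted p = 0.107), the only probe called there. That call was also lost with 10 of the 12 arrays left out in turn, at a limma adjusted p from 0.00157 to 0.304, and was kept without replicate 1 of siGALNT1 in HA22T or in PLC5. With slide as a block KRT17 was at -1.94 and -1.50, KRT23 at 4.73 and 4.79 and KRT80 at -5.73 and -5.30.

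Among results not called, 30 values of 15 results turned sign in the refitted alternatives, 18 of them with a replicate left out. Not counted there are 4 values within slide 1, which have no test, of KRT18 at -0.079 in the PLC5 knockdown and 0.43 between lines with siControl, and of KRT7 at 0.074 and KRT8 at 0.25 between lines with siGALNT1. Under normexp KRT8 and KRT18 in the HA22T knockdown were at 0.047 and 0.091, KRT18 between lines with siGALNT1 at -0.045, and KRT23 between knockdown effects at -0.16, or -0.20 by the mean over probes. Under quantile scaling KRT7 was at -0.13 in the PLC5 knockdown, 0.015 between lines with siControl and -0.077 between knockdown effects, and KRT18 between lines with siControl at 0.055. With slide as a block KRT18 was at 0.33 with siControl, and KRT7 and KRT8 at 0.084 and 0.28 with siGALNT1. With replicates left out, the PLC5 knockdown differences ran from -0.062 to 0.18 for KRT7, -0.21 to 0.47 for KRT8, -0.12 to 0.18 for KRT17, -0.17 to 0.47 for KRT18, -0.22 to 0.12 for KRT80 and -0.58 to 0.16 for KRT81. Between lines KRT18 ran from -0.61 to 0.041 with siControl and -0.16 to 0.27 with siGALNT1, and KRT23 between knockdown effects from -0.21 to 0.39. The cause was not tested. Scaling by the median moved the median of all counted probes between lines with siControl from -0.04 to -0.15. Signal over background limits KRT5 and KRT20, and flagged spots limit KRT19 and KRT81.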

Other observations

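Markers of hepatocytes, bile duct epithelium and mesenchymal cells were read on the same arrays. For the counts below, 11% of all counted probes were called higher and 11% lower in PLC5 with siControl. With siGALNT1 these shares were 13.1% and 9.79%. Of 10 hepatocyte markers, 9 were called higher in PLC5 with siControl and 0 lower, with a median difference of 4.49, and AFP was the exception at 0.30 (SE 0.40, limma adjusted p = 0.659). The iron carrier TF was higher in PLC5 by 9.62, the apolipoprotein APOB by 9.55 and the fibrinogen chain FGB by 5.81, and with siGALNT1 APOB was at 9.99, TF at 9.37 and SERPINA1 at 5.97. TF was well above background on 1 of 3 HA22T arrays in each condition, and APOB on 2 with siControl and 1 with siGALNT1, so that the size of these differences is uncertain. KRT8 and KRT18, on the same scale, were at -0.88 and -0.26 with siControl, and neither was called. Of 7 bile duct and progenitor markers counted, 2 were called higher in PLC5 (CD24 at 3.22 and SOX9 at 3.22) and 1 lower, MUC1 at -2.15. With siGALNT1 CLDN4 was also called lower, at -2.60. Of 8 mesenchymal markers counted, FN1 was called higher in PLC5, at 3.60, and VIM, TWIST1 and ZEB1 were called lower. With siGALNT1 FN1 was at 4.30, and CDH2 was also called lower, at -2.02.

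The probes whose 12 values, each centred on its own mean, lay closest to those of the keratins were sought among 15553 named probes well above background on all 12 arrays. The root mean square distance to KRT7 was 0.06 for CARMIL2, 0.06 for NFRKB and 0.08 for ZNF485. To KRT18 it was 0.13 for DCPS, 0.14 for ZNF219 and 0.14 for U2AF1, and to KRT8 it was 0.15 for MRPL27 and 0.16 for H2AC7 and PTGES2. For KRT19 it could not be computed, since no value was kept in HA22T with siGALNT1. These values are descriptions of 12 arrays in 4 groups and carry no test.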
